A study of Mus musculus with 6 samples.

Results

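The thioredoxin and glutaredoxin systems were followed through 9 genes: the thioredoxin reductases Txnrd1, Txnrd2 and Txnrd3, the thioredoxins Txn1 and Txn2, the thioredoxin inhibitor Txnip, and the glutaredoxins Glrx, Glrx2 and Glrx5. The members were all probes that are not controls and whose transcript accession belongs to one of these genes, which gave 11 of the 39429 probes of the array and 9 of the 19751 genes named on it. Txnip and Glrx2 had 2 probes each and the other 7 genes had 1. All 11 were well above background on all 6 arrays and passed the filter on dim probes.

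The tissue was hypothalamus, taken from C57BL/6J males at 16 weeks of age, and its RNA was measured on 6 single-colour arrays, 2 per genotype. TrspFF mice, the control group, carry floxed alleles of Trsp. Trsp-RIPKO mice carry those floxed alleles with RIP-Cre, a Cre recombinase under the rat insulin promoter, and Trsp-Ins1KO mice carry them with Ins1-Cre, so every group shares the floxed alleles and only the knockouts carry a Cre. Trsp encodes the transfer RNA for selenocysteine, and deletion is limited to cells that express the Cre, a share of this tissue that the labels do not give. In such bulk tissue fewer cells of a type and less RNA per cell cannot be told apart.

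Thioredoxin is a small protein with a pair of cysteines that reduces disulfides in other proteins, and thioredoxin reductase returns it to the reduced state with electrons from NADPH. In mammals the reductases are selenoproteins, with a selenocysteine close to the C-terminus, so their synthesis depends on the Trsp transfer RNA. Glutaredoxins do related work with electrons from glutathione and need no selenocysteine. The arrays measured transcripts and not protein or enzyme activity.

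Promoters give the sequence context of the members: 15 windows around annotated starts, from RefSeq on build GRCm38.p6, matched all 9 genes. Each window runs from 250 bases before to 50 bases after a start. They were searched on both strands for TGACNNNGC, the core of the antioxidant response element bound by NRF2, for the E-box CACGTG, and for 2 copies of CACGNG with 5 bases between them, a spaced pair as in carbohydrate response elements, either copy of which can itself be an E-box. The first was found in 1 of the 15 windows, at a start of Txnrd1, and in 12.4% of 32851 promoter windows of that length. The spaced pair was found in 1 of the 15, at the start of Txnip, and in 0.0487% of all windows. The E-box was found in 1 of the 15, at 1 of the 4 starts of Glrx2, and in 7.15% of all windows. The 250 bases before the Txnrd1 start (chr10:82858956-82859205, plus strand) and before the Txnip start (chr3:96557707-96557956, plus strand) are shown because Txnrd1 is the selenoprotein of the set that NRF2 is known to control and Txnip the member known to respond to glucose. Capitals mark the matched letters, which in Txnrd1 are those of the reverse complement.
Txnrd1: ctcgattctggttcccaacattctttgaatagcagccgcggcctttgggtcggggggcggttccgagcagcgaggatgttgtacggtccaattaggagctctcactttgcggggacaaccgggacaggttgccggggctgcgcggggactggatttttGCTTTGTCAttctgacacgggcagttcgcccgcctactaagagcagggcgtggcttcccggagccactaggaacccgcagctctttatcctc
Txnip: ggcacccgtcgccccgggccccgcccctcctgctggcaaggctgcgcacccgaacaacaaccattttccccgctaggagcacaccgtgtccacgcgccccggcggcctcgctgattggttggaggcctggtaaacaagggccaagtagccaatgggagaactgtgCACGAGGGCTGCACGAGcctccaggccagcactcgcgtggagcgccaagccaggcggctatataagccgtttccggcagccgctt

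A level is the log2 processed signal of a probe minus the log2 of the 75th percentile of its array, so 0 stands for that percentile. Levels are compared only between arrays for the same probe. That percentile lay between 1391 and 2137 in processed signal, and each array had 68.9% to 72.0% of its probes well above background. Of the 18 markers fixed for hypothalamic neurons, 16 passed the filter on dim probes (all but Ghrh and Otp). On each array 15 or 16 of these were well above background, which the filter already asks of both arrays of 1 genotype or more. Oxt, the oxytocin gene, had levels of 4.65 to 5.84. Trsp-Ins1KO replicate 2 stood apart: the mean level of 16 choroid plexus markers was -2.74 there and -0.37 to 0.53 on the other 5 arrays, and 14 of the 16 were well above background on it. The mean level of 10 cortex and hippocampus markers was -3.36 on that array and -2.1 to -1.0 on the others. Striatal markers had mean levels of -0.73 to -0.63 on the 4 knockout arrays and -0.09 and 0.26 in TrspFF; 10 of 10 were lower in Trsp-RIPKO and 9 of 10 in Trsp-Ins1KO (medians -0.62 and -0.55), with Gpr6 past an adjusted p of 0.05 in both (limma) and Adora2a in Trsp-Ins1KO. Endothelial markers were lower in 12 of 12 in Trsp-Ins1KO (median -0.41), with 0 past that threshold and 6 at unadjusted p under 0.05. In Trsp-RIPKO 8 of 12 were higher than TrspFF (median 0.42), and 11 of 12 were higher than in Trsp-Ins1KO (median 0.8). Meningeal markers were lower in 11 of 12 in Trsp-RIPKO and 12 of 12 in Trsp-Ins1KO (medians -0.37 and -0.61). Oligodendrocyte markers were lower in 5 of 10 in Trsp-RIPKO and 9 of 10 in Trsp-Ins1KO (medians 0 and -0.33). The part of these cell types in the members' values was not tested. TrspFF was run on a slide and scan of its own, apart from the 4 knockout arrays, which were together on a second one, so slide and genotype cannot be told apart in a comparison with TrspFF. In the deposited value table each knockout column holds the values that the scanner files give under the other knockout's name; names here follow the scanner files, and with the other naming each knockout result belongs to the other knockout.

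None of the 11 probes passed the threshold in any of the 3 comparisons (limma, Benjamini-Hochberg adjusted p under 0.05 over 28065 probes). Trsp-RIPKO against TrspFF had 0 of 11 called and a smallest adjusted p of 0.0804, where 1.49% of all probes were called (0.0748% higher, 1.41% lower). At unadjusted p under 0.05 it had 4 of 11, where 23.9% of all probes were. Trsp-Ins1KO against TrspFF had 0 of 11 called and a smallest adjusted p of 0.0663, where 1.66% were called (0.207% higher, 1.45% lower), and 5 of 11 at unadjusted p under 0.05, where 25.7% of all probes were. Between the knockouts 0 of 11 were called and the smallest adjusted p was 0.265, where 0.0143% of probes were called, with 0 of them higher and 0.0143% lower in Trsp-RIPKO. There 2 of 11 had an unadjusted p under 0.05, where 18.2% of all probes did. With trend and robust estimation in limma 0, 2 and 0 of the 11 member probes passed in these comparisons. Of all 28065 probes 1016, 1600 and 1 passed with that setting. Because the labels do not say that the arrays came from separate animals, these p-values may reflect technical spread alone. The median difference of the 11 was 0.01, 0.05 and -0.06 log2, against -0.02, 0.02 and -0.05 over all probes. The 2 TrspFF arrays serve in both comparisons with the control.

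The 95% intervals are not adjusted for the number of probes and rest on the same spread between arrays, which may be technical alone. Against TrspFF they take slide and genotype together, so they do not bound an effect of genotype by itself. They lay within a 2-fold change in either direction for 9 of 11 probes in Trsp-RIPKO against TrspFF, 8 in Trsp-Ins1KO against TrspFF and 7 between the knockouts. For the 3 reductases and both thioredoxins all intervals did so. The glutaredoxins Glrx and Glrx2 held most of the wider ones. How many of all probes had intervals within a 2-fold change was not counted, so these counts do not set the members apart.

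**Figure D1:**
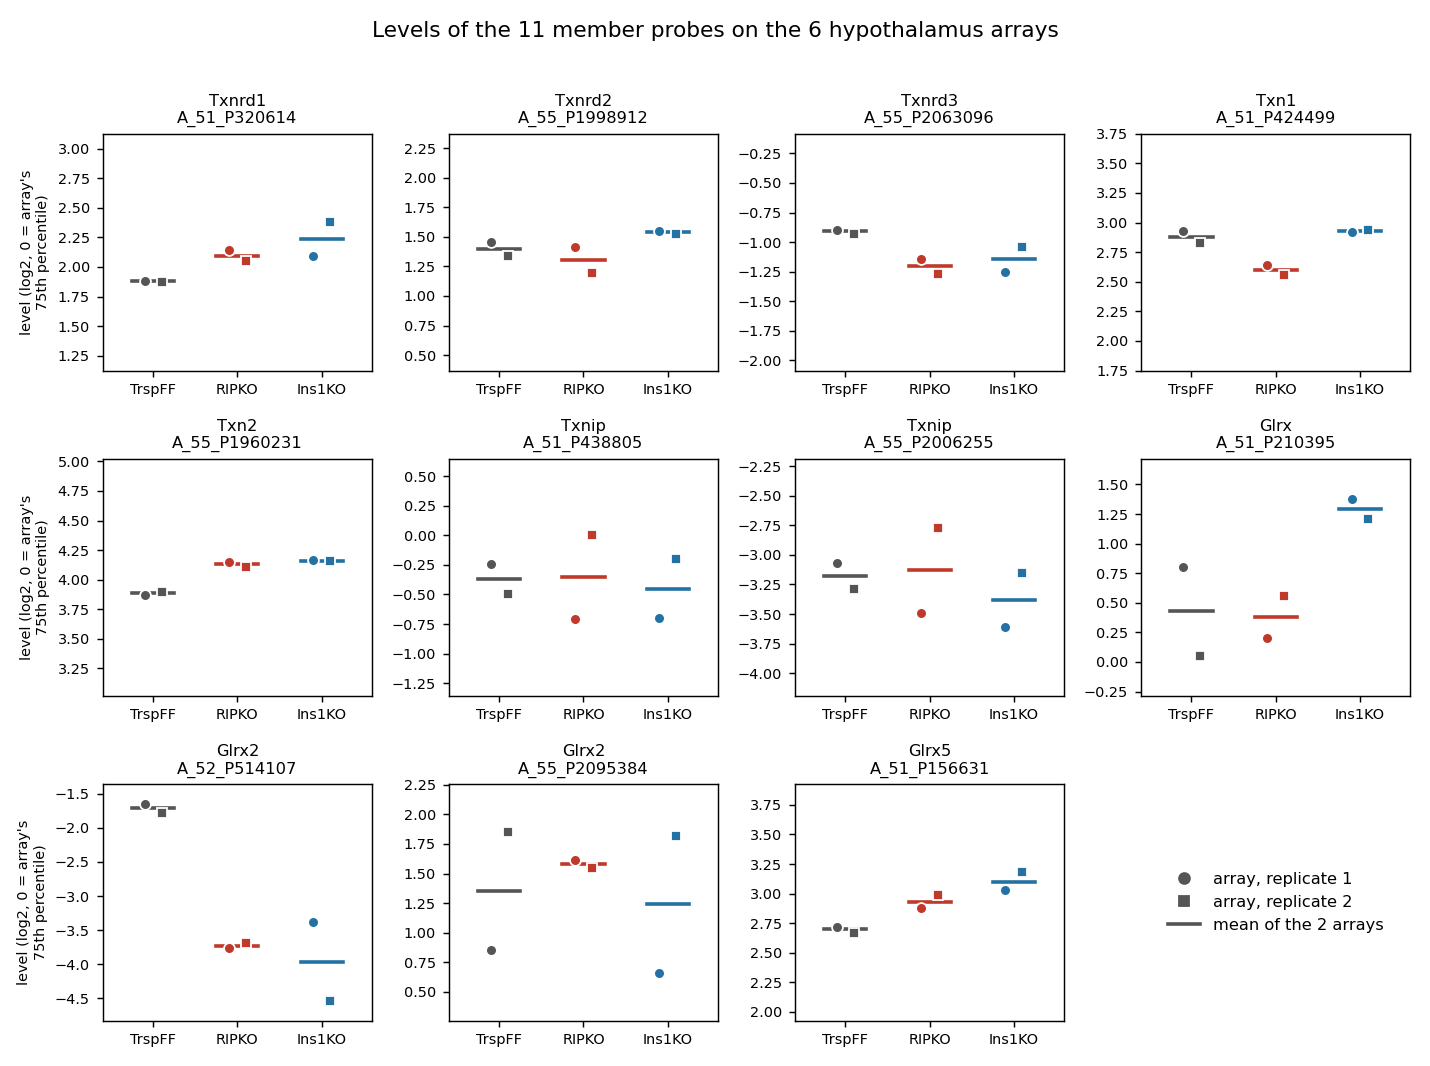
Level (log2, 0 is the array's 75th percentile) of each member probe on the 6 arrays, by genotype; circles and squares are replicates 1 and 2 and bars are means of 2 arrays, and each panel has its own axis of at least 2 log2 units. Txnrd1, Txn2 and Glrx5 lie higher on all 4 knockout arrays than on both TrspFF arrays, and Txnrd3 and the dimmer Glrx2 probe lie lower.

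None of the 3 reductases passed in any comparison. Txnrd1 encodes the reductase of the cytosol and nucleus (chr10:82833951-82897724, GRCm38.p6). Its levels were 1.88 and 1.87 in TrspFF, 2.14 and 2.05 in Trsp-RIPKO, and 2.09 and 2.38 in Trsp-Ins1KO. All 4 knockout arrays lay above both TrspFF arrays, and the knockouts overlapped each other. The difference from TrspFF was 0.22 (SE 0.123, adjusted p = 0.336) in Trsp-RIPKO and 0.36 (SE 0.123, 1.28-fold, adjusted p = 0.161) in Trsp-Ins1KO. The second value rests partly on Trsp-Ins1KO replicate 2, the array low in choroid plexus markers, without which it was 0.22.

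Txnrd2, the mitochondrial reductase (chr16:18426417-18479073), had levels of 1.46 and 1.34 in TrspFF, 1.41 and 1.19 in Trsp-RIPKO, and 1.55 and 1.52 in Trsp-Ins1KO. Trsp-RIPKO overlapped TrspFF, while Trsp-Ins1KO lay above both other groups by small steps. Its difference between the knockouts was -0.24 (SE 0.113, adjusted p = 0.313), and against TrspFF it was -0.10 and 0.13 (adjusted p = 0.601 and 0.484). Its intervals against TrspFF, which take slide and genotype together, reached at most 1.31-fold in Trsp-RIPKO and 1.34-fold in Trsp-Ins1KO.

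Txnrd3, also called thioredoxin glutathione reductase because it carries a glutaredoxin domain, is best known from testis (chr6:89643988-89675529). Its levels were -0.90 and -0.93 in TrspFF, -1.14 and -1.27 in Trsp-RIPKO, and -1.25 and -1.04 in Trsp-Ins1KO. Here all 4 knockout arrays lay below both TrspFF arrays, opposite to Txnrd1. The differences were -0.29 (SE 0.109, adjusted p = 0.206) and -0.23 (SE 0.109, adjusted p = 0.259). The knockouts overlapped, with a difference of -0.06 and a 95% interval of -0.34 to 0.23. The lower levels of Txnrd3 are relative to the array as a whole. Its processed signal was 745 and 903 in TrspFF, 846 and 888 in Trsp-RIPKO, and 732 and 937 in Trsp-Ins1KO.

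The thioredoxins were the members measured most tightly. Txn1, the cytosolic thioredoxin (chr4:57943373-57956411), had levels of 2.93 and 2.83 in TrspFF, 2.64 and 2.56 in Trsp-RIPKO, and 2.92 and 2.94 in Trsp-Ins1KO. Both Trsp-RIPKO arrays were the lowest of the 6, and Trsp-Ins1KO overlapped TrspFF. The difference was -0.28 (SE 0.0863, 1.21-fold, adjusted p = 0.159) in Trsp-RIPKO against TrspFF and -0.33 (SE 0.0863, 1.26-fold, adjusted p = 0.265) against Trsp-Ins1KO. In Trsp-Ins1KO against TrspFF it was 0.05 with a 95% interval of -0.17 to 0.27, and quantile normalization turned it to -0.03. The lower level of Txn1 in Trsp-RIPKO is relative to the array as a whole: the processed signal itself was 11595 and 12644 there and 10571 and 12256 in TrspFF.

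Txn2, the mitochondrial thioredoxin (chr15:77915051-77928994), had levels of 3.87 and 3.90 in TrspFF, 4.15 and 4.11 in Trsp-RIPKO, and 4.17 and 4.16 in Trsp-Ins1KO. Every knockout array lay above both TrspFF arrays, by more than the gap between replicates, which was at most 0.04 in any group. The differences were 0.24 (SE 0.0786, 1.18-fold, adjusted p = 0.166) and 0.28 (SE 0.0786, 1.21-fold, adjusted p = 0.125). The knockouts differed by -0.03, with a 95% interval of -0.24 to 0.17. In Trsp-RIPKO the cytosolic and the mitochondrial thioredoxin thus lay on opposite sides of TrspFF; that contrast between 2 probes was not tested.

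Txnip binds reduced thioredoxin and blocks it, belongs to the alpha-arrestins, and lowers glucose uptake (chr3:96557957-96561857). Its brighter probe had levels of -0.24 and -0.50 in TrspFF, -0.71 and 0.00 in Trsp-RIPKO, and -0.70 and -0.20 in Trsp-Ins1KO. All groups overlapped, and the replicate gaps of 0.70 and 0.51 in the knockouts exceeded every difference between groups. Its differences were 0.01 (SE 0.299), -0.08 and 0.10 in the 3 comparisons, at adjusted p of 0.986, 0.876 and 0.871. The dimmer probe gave 0.05, -0.20 and 0.25 (SE 0.29), at adjusted p of 0.93, 0.678 and 0.636. Both probes placed the arrays alike: Trsp-RIPKO replicate 2 was 0.36 and 0.45 above the median of its probe, and Trsp-Ins1KO replicate 1 was lower than it, at -0.34 and -0.39. The spread of Txnip between replicates thus appeared on both probes. A change of Txnip of up to 1.72-fold in Trsp-RIPKO and 1.81-fold in Trsp-Ins1KO would lie within the intervals of the brighter probe.

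**Figure D2:**
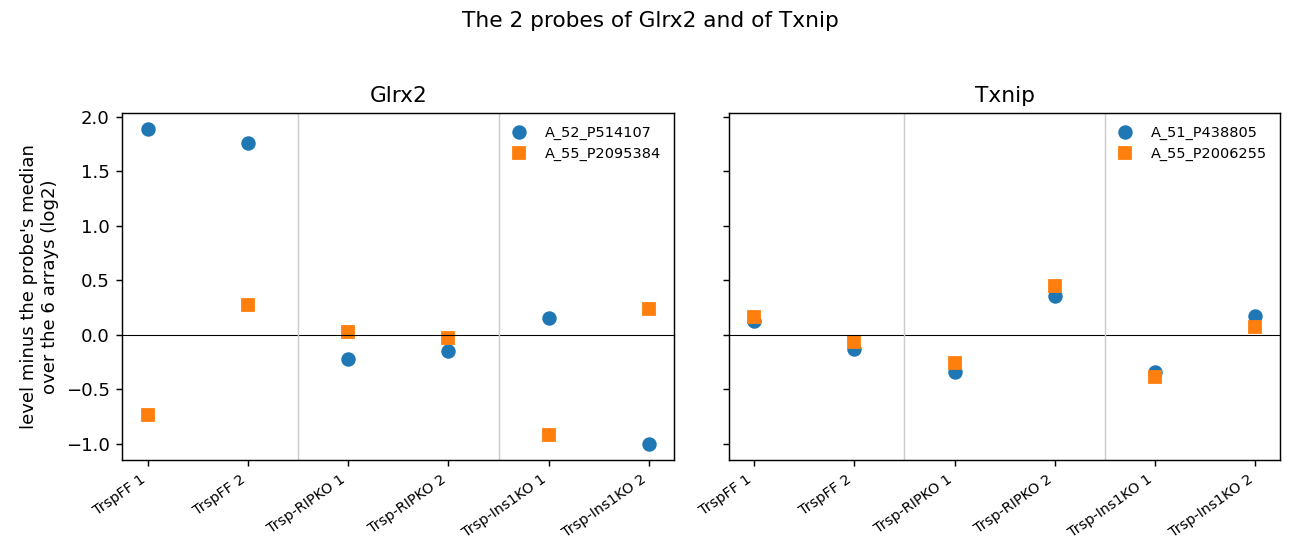
Level of each array minus the median of the same probe over the 6 arrays (log2), for the 2 probes of Glrx2 and the 2 of Txnip; each point is 1 array. The Txnip probes follow each other across arrays, while the Glrx2 probes part: A_52_P514107 is 1.89 and 1.76 above its median on the TrspFF arrays, where A_55_P2095384 is at -0.73 and 0.27.

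Glrx2 is the mitochondrial glutaredoxin, with further isoforms outside mitochondria (chr1:143739224-143749678), and its 2 probes disagreed although both carry the same transcript accession. The dimmer probe, A_52_P514107, had levels of -1.65 and -1.78 in TrspFF, -3.76 and -3.69 in Trsp-RIPKO, and -3.38 and -4.54 in Trsp-Ins1KO. In processed signal this was 444 and 502 in TrspFF and 83 to 166 on the knockout arrays. All knockout arrays lay far below both TrspFF arrays, the widest separation among the members. The difference was -2.02 (SE 0.38, 4.04-fold, adjusted p = 0.0804) in Trsp-RIPKO and -2.25 (SE 0.38, 4.76-fold, adjusted p = 0.0663) in Trsp-Ins1KO. Neither passed the threshold. The second passed with normexp background correction (-1.53, adjusted p = 0.0485) and with trend and robust estimation (adjusted p = 0.0379), over a range of adjusted p from 0.0379 to 0.186 in the settings tried. Without Trsp-Ins1KO replicate 2 it was -1.67.

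The brighter Glrx2 probe, A_55_P2095384, showed no such separation. Its levels were 0.85 and 1.85 in TrspFF, 1.61 and 1.55 in Trsp-RIPKO, and 0.66 and 1.82 in Trsp-Ins1KO. Replicates of TrspFF and Trsp-Ins1KO lay 1.00 and 1.16 apart, which is wider than any difference of this probe between groups. Its differences from TrspFF were 0.23 (SE 0.495, adjusted p = 0.795) and -0.10 (SE 0.495, adjusted p = 0.91). Whether the 2 probes read different Glrx2 transcripts was not tested; RefSeq lists 4 starts for the gene.

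Glrx is the cytosolic glutaredoxin, which removes glutathione from protein cysteines (chr13:75839885-75850151). Its levels were 0.80 and 0.05 in TrspFF, 0.20 and 0.56 in Trsp-RIPKO, and 1.38 and 1.21 in Trsp-Ins1KO. Both Trsp-Ins1KO arrays were above the other 4, which overlapped. Glrx differed by 0.87 (SE 0.281, 1.82-fold, adjusted p = 0.151) in Trsp-Ins1KO against TrspFF and by -0.92 (SE 0.281, 1.89-fold, adjusted p = 0.265) in Trsp-RIPKO against Trsp-Ins1KO. The first depends on the TrspFF arrays, being 1.24 without replicate 1 and 0.49 without replicate 2. The markers of hypothalamic neurons were also higher in Trsp-Ins1KO (mean level 1.17 and 1.18, against 0.56 to 0.78 on the other arrays). Of these, 14 of 16 were above TrspFF, with a median difference of 0.63. Microglia markers (10 of 10 above TrspFF, median 0.23) and ependymal and tanycyte markers (7 of 8, median 0.4) went the same way. Astrocyte markers had a median of 0.05. Choroid plexus, meningeal, endothelial, cortical, striatal and oligodendrocyte markers had medians below TrspFF. The part of these markers in the value of Glrx was not tested. The choroid plexus markers differed between the Trsp-Ins1KO arrays (-0.37 and -2.74), and their part in the value of Glrx was not tested either. Glrx lay within 0.17 on these arrays. Without replicate 2 of that genotype the difference of Glrx from TrspFF was 0.95.

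Glrx5 acts in mitochondria in the transfer of iron-sulfur clusters (chr12:105032618-105040911). Its levels were 2.72 and 2.67 in TrspFF, 2.88 and 2.99 in Trsp-RIPKO, and 3.03 and 3.18 in Trsp-Ins1KO. The 3 groups did not overlap and stood in the order TrspFF, Trsp-RIPKO, Trsp-Ins1KO. The differences from TrspFF were 0.24 (SE 0.0977, adjusted p = 0.23) and 0.41 (SE 0.0977, 1.33-fold, adjusted p = 0.101), and between the knockouts -0.17 (SE 0.0977, adjusted p = 0.373). With trend and robust estimation Glrx5 in Trsp-Ins1KO passed at an adjusted p of 0.0479; over the settings tried that p ranged from 0.0479 to 0.311.

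**Figure D3:**
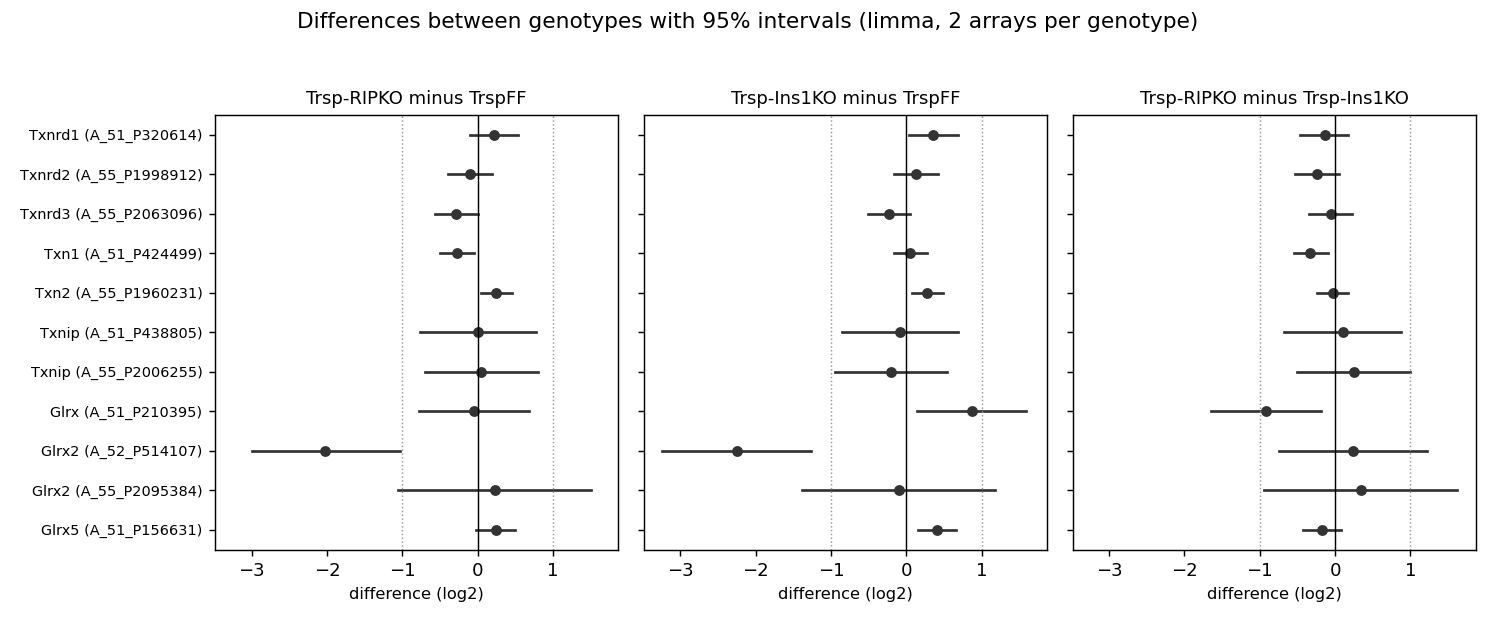
Difference (log2) between genotypes for the 11 member probes; points are estimates and bars 95% intervals from limma over 6 arrays, and dotted lines mark a 2-fold change. Most intervals stay within the dotted lines; the dimmer Glrx2 probe lies at -2.02 and -2.25 against TrspFF.

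Seen across the members, 3 of 11 probes (Txnrd1, Txn2, Glrx5) were higher on all 4 knockout arrays than on both TrspFF arrays, where 16.4% of all probes were, and 2 of 11 (Txnrd3 and the dimmer Glrx2 probe) were lower on all 4, where 18% were. In Trsp-RIPKO 6 of the 11 did not overlap TrspFF, in Trsp-Ins1KO 7 did not, and between the knockouts 5 did not, against 58.1% of all probes in each comparison. In Trsp-RIPKO 3 were higher and 3 lower than TrspFF, where 27.4% and 30.7% of all probes were, and in Trsp-Ins1KO 5 were higher and 2 lower, where 30.8% and 27.3% were. These shares are near the background or rest on a few probes. All 5 of the non-overlapping probes between the knockouts (Txnrd2, Txn1, Txn2, Glrx, Glrx5) were lower in Trsp-RIPKO, a direction that 35.1% of all probes took, while 23% did not overlap and were higher; with quantile normalization Txn2 turned to 0.11.

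Other genes of the pathway were described from lists, taking the brightest probe of each gene; some genes stand on more than 1 list. Counts at unadjusted p under 0.05 are to be read against the 23.9% and 25.7% of all probes above. Counts above 0 are likewise to be read against 47.4% in Trsp-RIPKO and 52% in Trsp-Ins1KO. These shares are over all kept probes and not over the brightest probe of each gene. The genes named had the smallest p in any of the 3 comparisons, so the difference between the knockouts is given where it made the choice. Peroxiredoxins use thioredoxin to remove peroxides. Of 10 genes for peroxiredoxins and their repair 0 passed in either comparison with TrspFF (1 and 3 at unadjusted p under 0.05, limma). Their median difference was -0.05 in Trsp-RIPKO and 0.16 in Trsp-Ins1KO, with 4 and 9 of 10 above 0, where 47.4% and 52% of all probes were. Srxn1, which repairs overoxidised peroxiredoxins, was at -0.02 and 0.43 (adjusted p = 0.916 and 0.104), and Prdx4 of the endoplasmic reticulum at -0.24 and 0.18 (adjusted p = 0.258 and 0.341). Between the knockouts Srxn1 was at -0.45 and Prdx4 at -0.41, both at an adjusted p of 0.265. Of 12 genes for other clients of thioredoxin and for subunits of such clients 0 passed (1 and 3 at unadjusted p under 0.05). Among them Rrm2b, a ribonucleotide reductase subunit, was at -0.52 and -0.66 (adjusted p = 0.113 and 0.076), and Apex1, a DNA repair enzyme that thioredoxin reduces, at 0.21 and 0.37 (adjusted p = 0.236 and 0.102).

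Relatives with a thioredoxin fold held 20 measured genes, of which 0 passed (0 and 7 at unadjusted p under 0.05). In Trsp-Ins1KO 19 of 20 were above 0 with a median of 0.14, where 52% of all probes were above 0. In Trsp-RIPKO 12 of 20 were, with a median of 0.06, where 47.4% of all probes were. Glrx3, a cytosolic glutaredoxin that carries iron-sulfur clusters, was at -0.06 and 0.26 (adjusted p = 0.743 and 0.188), and the disulfide isomerase Pdia6 at -0.29 and 0.15 (adjusted p = 0.21 and 0.449). Between the knockouts Glrx3 was at -0.32 and Pdia6 at -0.44, both at an adjusted p of 0.265. Of 13 measured genes that supply NADPH 0 passed (3 and 3 at unadjusted p under 0.05), with medians of -0.02 and 0.04. Nadk, the cytosolic NAD kinase, was at -0.29 and -0.37 (adjusted p = 0.152 and 0.102), and Me1, the cytosolic malic enzyme, at -0.30 and 0.04 (adjusted p = 0.183 and 0.831). Between the knockouts Me1 was at -0.34 (limma, adjusted p = 0.265).

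Of 10 genes for the supply and reduction of glutathione, the electron donor of glutaredoxins, 0 passed (3 and 3 at unadjusted p under 0.05), with medians of 0.08 and 0.07. Gclm, the modifier subunit of the enzyme that starts glutathione synthesis, was at -0.55 and -0.50 (SE 0.094, adjusted p = 0.0693 and 0.0751). Its levels were -1.28 and -1.33 in TrspFF and -1.91 to -1.74 on the knockout arrays, which did not overlap. The glutathione-degrading Chac1 was at 0.28 and 0.47 (adjusted p = 0.219 and 0.0991).

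NRF2, encoded by Nfe2l2, drives Txnrd1, Txn1, Srxn1 and Gclm among others, and Keap1 holds it in check. Of 29 regulators and targets 0 passed in Trsp-RIPKO (7 at unadjusted p under 0.05) and 1, Keap1, in Trsp-Ins1KO (10 at unadjusted p under 0.05). The medians were -0.02 and 0.09, with 12 and 16 of 29 above 0. Keap1 had levels of 1.97 and 1.99 in TrspFF, 1.62 and 1.57 in Trsp-RIPKO, and 1.41 and 1.37 in Trsp-Ins1KO. The 3 groups did not overlap, where 58.1% of all probes did not in each comparison of 2 genotypes. Keap1 fell by 0.59 in Trsp-Ins1KO (SE 0.0795, adjusted p = 0.0474 by limma) and was at -0.38 in Trsp-RIPKO (adjusted p = 0.0897, and 0.0425 with trend and robust estimation). The call ended without any 1 of the 6 arrays (adjusted p from 0.077 to 0.193), with normexp (0.0727), median scaling (0.0739), no filter (0.127) and only the 2 genotypes (0.134), while the difference stayed between -0.62 and -0.38.

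Alpha-arrestins and genes of the carbohydrate response, the setting of Txnip, held 15 measured genes. Of these, 0 passed in Trsp-RIPKO and 1 in Trsp-Ins1KO (4 and 5 at unadjusted p under 0.05), with medians of 0.07 and -0.10. That gene was Nlrp3, the inflammasome sensor that Txnip is known to bind. Nlrp3 had faint levels of -4.23 and -4.13 in TrspFF, -4.64 and -4.59 in Trsp-RIPKO, and -5.00 and -5.11 in Trsp-Ins1KO, and was well above background on all 6 arrays. It fell by 0.87 in Trsp-Ins1KO (SE 0.0919, adjusted p = 0.0333) and was at -0.43 in Trsp-RIPKO (adjusted p = 0.0929). This call too ended without any 1 of the 6 arrays (adjusted p from 0.0535 to 0.15), and it ended with no filter (0.088), with only the 2 genotypes (0.104) and with normexp, where the difference was -0.43 (adjusted p = 0.0995). Arrdc4, an alpha-arrestin close to Txnip, was at 0.07 and -0.03 (adjusted p = 0.722 and 0.885) and was named after its values were seen.

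**Figure D4:**
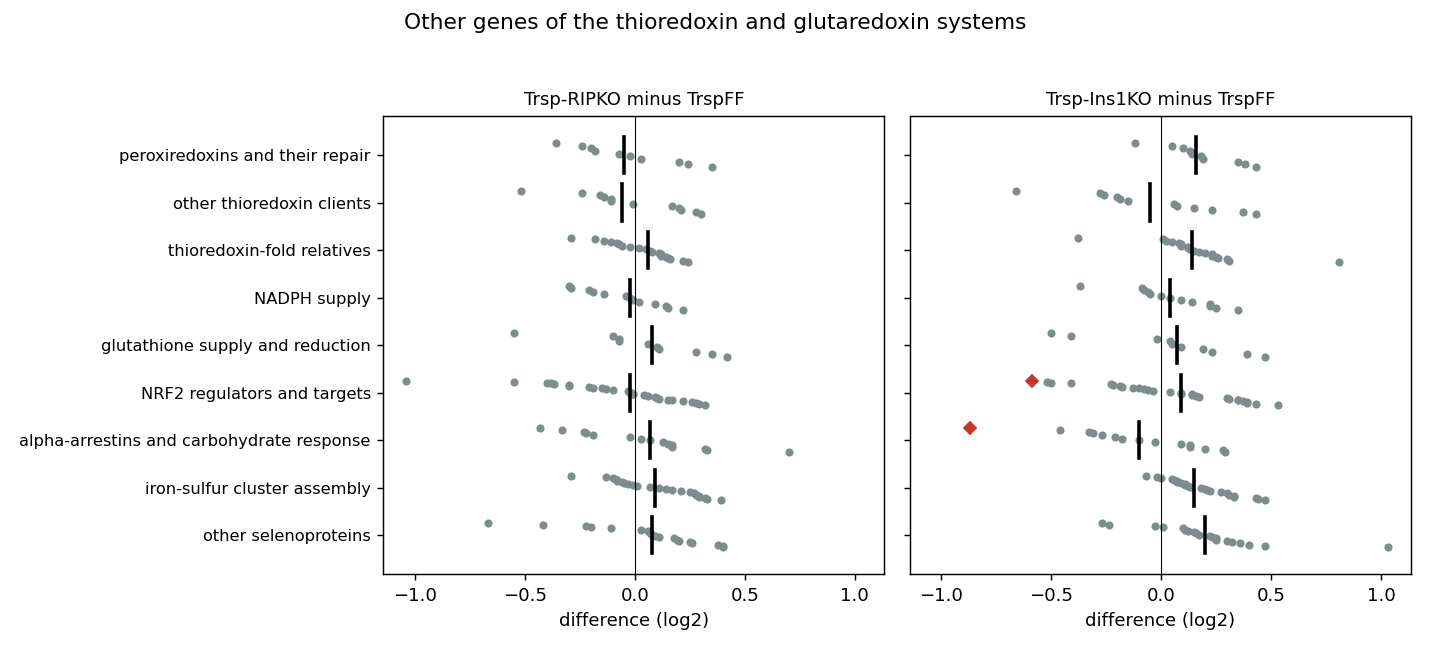
Difference (log2) from TrspFF of each measured gene on 9 pathway lists, in Trsp-RIPKO (left) and Trsp-Ins1KO (right); grey circles are genes above the adjusted p threshold of 0.05, red diamonds genes below it, and black bars list medians. The red diamonds are Keap1 at -0.59 and Nlrp3 at -0.87, both in Trsp-Ins1KO.

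Assembly of iron-sulfur clusters, in which Glrx5 acts, held 24 measured genes, of which 0 passed (6 and 6 at unadjusted p under 0.05). The medians were 0.09 and 0.15, and 14 and 22 of 24 were above 0. Bola3, a mitochondrial partner of Glrx5, was at 0.29 and 0.43 (SE 0.0811, adjusted p = 0.137 and 0.0753), and Bola2, a partner of Glrx3, at 0.14 and 0.47 (adjusted p = 0.472 and 0.0993). Of 20 other measured selenoprotein genes, Msrb1 of the clients among them, 0 passed (5 and 7 at unadjusted p under 0.05). Their medians were 0.08 and 0.20, with 15 and 17 of 20 above 0, beside which the 3 reductases had medians of -0.10 and 0.13. Selenok of the endoplasmic reticulum was at 0.19 and 0.40 (adjusted p = 0.251 and 0.0847) and the glutathione peroxidase Gpx2 at 0.38 and 0.30 (adjusted p = 0.0986 and 0.124).

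Among 15143 genes with a usual symbol, those most like 3 of the members were found by Pearson r of levels over the 6 arrays, as a description. For Txnrd1 these were Kazn (r = 0.997), Tgfb3 (0.995) and Mast1 (0.995). For Txnrd2 they were Atp5l (0.995), Klhl22 (0.992) and Hpf1 (0.991), and for Txnip Cnot9 (0.983), Pik3r4 (0.973) and Psmf1 (0.972). With 6 arrays such values are common: 429 genes had r above 0.9 with Txnrd1 and 359 with Txnrd2, but 27 with Txnip.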

How the data were processed

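Per the file headers, the scanner files were made with Agilent Feature Extraction 10.7.3.1 and give each spot an intensity that is already background-subtracted, with quality flags. The deposited value table holds log2 values centred on the median of each probe; no source used here gives its scaling, and its columns labelled Trsp-RIPKO and Trsp-Ins1KO matched the scanner arrays of the other name (r of 0.999969 or above).

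Of 43020 spots that are not controls, unflagged spots of a probe were averaged to 39429 probes, of which 118 had only flagged spots on some array. Log2 processed signal minus the 75th percentile of the array was used. Kept were the 28065 probes that 1 genotype or more had well above background on both its arrays. Symbols came from unversioned transcript accessions and a RefSeq table of GRCm38.p6 (26055 probes named). Differences were fitted with limma 3.58.1 in R 4.3.3 on all 6 arrays, with Benjamini-Hochberg adjustment over kept probes; the median standard error was 0.128. The method was tested on simulated data with no slide effect and with changes larger than most differences of the members. That test therefore does not cover small changes or the joining of slide and genotype. With 2 arrays per genotype, their number limits the precision. Named were all member probes and, per list, up to 6 genes past the threshold or otherwise the 2 with the smallest p in any of the 3 comparisons. The alternatives were other background correction, scaling, filters, variance models, 1 probe per gene, the value table, a replicate block and leaving out arrays; a slide block could not be fitted. The fits on the value table with matched columns were added after seeing the data. Members and lists were chosen with earlier results of these data known. No probe was named Trsp, so the deletion was not checked.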

Additional observations from a re-analysis of the deposited data

Results flagged for a closer look

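The Txn1 arrays of the knockouts lay on opposite sides of the mean of the TrspFF arrays, both Trsp-RIPKO arrays below it and both Trsp-Ins1KO arrays above it. Neither comparison with TrspFF passed: Txn1 was at -0.28 in Trsp-RIPKO (adjusted p = 0.159) and at 0.05 in Trsp-Ins1KO (adjusted p = 0.727), where the groups overlapped and quantile normalization turned the value to -0.03. The difference between the knockouts was -0.33 (SE 0.0863, log2), which did not pass the threshold (limma, adjusted p = 0.265). All 4 of these arrays share 1 slide and scan.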

How the results depend on the processing

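Over all settings with the scanner names, the differences of Txnrd1, Txnrd3, Txn2, Glrx5 and the dimmer Glrx2 probe from TrspFF kept their direction in both knockouts, as did Txn1 in Trsp-RIPKO and Glrx and Txnrd2 in Trsp-Ins1KO. With median scaling the median difference of all probes moved to 0.09 (Trsp-RIPKO) and 0.10 (Trsp-Ins1KO), Glrx and Txnrd2 turned to 0.06 and 0.01 in Trsp-RIPKO, and Txnip to 0.002 in Trsp-Ins1KO. Quantile normalization turned Txn1 in Trsp-Ins1KO to -0.03 and Txn2 between the knockouts to 0.11, and normexp the dimmer Txnip probe in Trsp-RIPKO to -0.01. The cause was not tested.

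Leaving out 1 array, 0 member probes passed in any comparison, and differences that changed sign ranged as follows. In Trsp-RIPKO against TrspFF they were Glrx (-0.43 to 0.33), Txnrd2 (-0.21 to 0.01), Txnip (-0.34 to 0.36, dimmer probe -0.31 to 0.40) and the brighter Glrx2 probe (-0.27 to 0.73). In Trsp-Ins1KO they were Txnip (-0.34 to 0.17, dimmer -0.43 to 0.03) and the brighter Glrx2 probe (-0.68 to 0.48). Between the knockouts they were Txnrd1 (-0.29 to 0.001), Txnrd3 (-0.16 to 0.04), Txnip (-0.26 to 0.45, dimmer -0.10 to 0.61) and Glrx2 (-0.24 to 0.92, dimmer -0.34 to 0.82).

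Member probes passed in Trsp-Ins1KO against TrspFF with normexp (1) and with trend and robust estimation (2). Calls over all probes were 417 (Trsp-RIPKO against TrspFF, 95% lower), 466 (Trsp-Ins1KO against TrspFF, 87.6% lower) and 4 (between knockouts). In that order they were 1016, 1600 and 1 with trend and robust, 0, 28 and 0 without a filter, and 0, 0 and 385 with only the 2 genotypes. With normexp Trsp-Ins1KO had 729 (69.1% lower), Trsp-RIPKO 512 (84.2% lower), and the knockouts differed in 1. Median scaling gave 210 in Trsp-RIPKO, and the filter over all 6 arrays 2 between knockouts. Leaving out 1 array gave 0 to 526, 0 to 537 and 0 to 385 calls. With the replicate number as a replicate block 0, 0 and 0 probes passed and 0 members, Keap1 and Nlrp3 in Trsp-Ins1KO being at adjusted p of 0.105 and 0.0945; replicate differences correlated between genotypes at -0.017 to 0.089, so same-numbered arrays share only a number.

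With the value table under its own names the values of the knockouts exchange. Against TrspFF, Trsp-RIPKO then had Glrx at 0.87, Txn1 0.05, Txnrd2 0.13, Txnip -0.08 (dimmer -0.20) and Glrx2 -0.10, and Trsp-Ins1KO Glrx -0.05, Txn1 -0.28, Txnrd2 -0.10, Txnip 0.01 (dimmer 0.05) and Glrx2 0.23. Between knockouts Glrx5 was at 0.17, Glrx 0.92, Txnrd1 0.14, Txn1 0.33, Txn2 0.04, Txnrd2 0.24, Txnrd3 0.06, Txnip -0.09 (dimmer -0.25), Glrx2 -0.34 (dimmer -0.24), Keap1 -0.20 and Nlrp3 -0.44.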
